A study of Mus musculus with 12 samples.

Results

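MHC class II molecules are pairs of an alpha and a beta chain that carry peptides from proteins taken up by a cell to its surface and show them to CD4+ T cells. The invariant chain Cd74 holds the newly made pair and steers it to the endosome, the peptide editor H2-DM loads it there, and H2-DO restrains H2-DM. The coactivator Ciita, which interferon gamma induces, switches on class II genes. In tumors these genes are known as a mark of dendritic cells, macrophages and B cells and, under interferon gamma, of other cells too. The set described here was named by symbol and holds 10 of the 18211 genes in the table: the classical chains H2-Aa, H2-Ab1 and H2-Eb1, Cd74, Ciita, the H2-DM chains H2-DMa, H2-DMb1 and H2-DMb2, and the H2-DO chains H2-Oa and H2-Ob. The rule is the symbols alone, though the list was drawn up with earlier results of these data known, and all 10 passed the filter on low counts that left 13563 genes.

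The RNA came from whole MC38 tumors, a mouse colorectal adenocarcinoma line grown under the skin of C57BL/6 mice (female, 5 weeks old), with 3 tumors in each of 4 groups. CK mice received the vehicle, PB-020 mice the oral IGF-1R inhibitor of that code name at 50 mg/kg per day from the grouping at day 7, anti-PD-1 mice the PD-1 blocking antibody at 200 μg per mouse on days 9, 12, 15 and 18 after cell injection, and PB-020/anti-PD-1 mice both. The sources do not say which mouse gave which tumor, so p values measure the spread between these tumors. In bulk tumor RNA, fewer cells of a type and less RNA per cell cannot be told apart, and levels are given as FPKM, fragments per length of transcript scaled to the library's total.

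Of the whole series, depth was even, at 16545394 to 17217035 expected counts per tumor. Of the 6 epithelial markers expected of a carcinoma, 5 were too low to test (Epcam at most 0.54 FPKM and Krt8 at most 0.14 FPKM), and the cadherin Cdh1 was at 1.59 to 3.96 FPKM, so by most of these genes the labelled tumor type was not recognisable. B cell markers were also near the floor, with 10 markers summing to between 1.10 and 4.02 FPKM per tumor and Ms4a1 listed at 0 in some tumors of all 4 groups. The tumor labelled anti-PD-1 1 stood apart, with skeletal muscle markers summing to 573 FPKM against 11.7 to 63.8 FPKM in the other 11 tumors, and with the highest summed macrophage (3188 FPKM), dendritic cell (48.3 FPKM) and T cell (74.6 FPKM) markers of all. It also held the highest level of 8 of the 10 class II genes, and its part in the results was measured by leaving it out.

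The genes differ widely in level. Averaged over the 12 tumors, Cd74 stood at 561 FPKM, H2-Aa at 420 FPKM, H2-Ab1 at 220 FPKM and H2-Eb1 at 112 FPKM. The H2-DM chains followed, with H2-DMb1 at 65.1 FPKM and H2-DMa at 25.7 FPKM. Ciita (3.36 FPKM), H2-DMb2 (3.03 FPKM), H2-Oa (1.04 FPKM) and H2-Ob (0.622 FPKM) formed the low end. Each neighbour in this order lay above the next in all 12 tumors, except Ciita over H2-DMb2 (8 of 12 tumors) and H2-Oa over H2-Ob (10 of 12 tumors), pairs whose levels did not separate. H2-Eb1 was read from a gene whose partner is missing in this strain, since C57BL/6 mice lack a functional alpha chain for the I-E molecule, and it was nevertheless present in every tumor. A further beta chain gene, H2-Eb2, was listed at no more than 0.20 FPKM and was not tested.

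Of the 10 genes, 8 lie together on chromosome 17 of GRCm38.p6, from the start of H2-Oa at 34092379 to the end of H2-Eb1 at 34316674, and Ciita lies on chromosome 16 from 10480014 to 10531064. Class II promoters are known for an X box, bound by RFX, followed by a Y box, bound by NF-Y, in front of the start site. The windows below lie upstream of start sites in RefSeq for GRCm38.p6 and are shown for these boxes. RefSeq promoters were at hand for 7 of the 10 genes, and the window of H2-DMa is not printed. Capitals mark the letters AACNNATG taken here for an X core, the letters ATTGG for a Y core, and in H2-Aa the palindrome TGACGTCA, a motif chosen after that window had been read. They are printed 5′ to 3′ on the strand of the gene.
H2-Eb1, chr17:34305758-34305822, plus strand: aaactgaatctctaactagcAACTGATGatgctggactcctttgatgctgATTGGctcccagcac
H2-Aa, chr17:34287857-34287921, minus strand: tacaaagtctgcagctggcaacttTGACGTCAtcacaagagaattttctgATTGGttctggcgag
H2-DMb1, chr17:34153080-34153144, plus strand: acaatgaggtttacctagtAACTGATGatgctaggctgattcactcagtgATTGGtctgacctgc
H2-DMb2, chr17:34145109-34145173, plus strand: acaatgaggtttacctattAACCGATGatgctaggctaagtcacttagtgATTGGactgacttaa
H2-Ob, chr17:34238798-34238862, plus strand: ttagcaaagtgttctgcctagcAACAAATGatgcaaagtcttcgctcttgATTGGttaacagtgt
H2-Oa, chr17:34092286-34092350, plus strand: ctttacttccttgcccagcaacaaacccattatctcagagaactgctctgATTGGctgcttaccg

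Searched on both strands over the 300 bases of each promoter, an X core followed by a Y core within 40 bases was found in H2-Eb1, H2-DMb1, H2-DMb2 and H2-Ob, with 20 to 23 bases between them, and in 0.344% of all 32851 promoters of the table. The X core alone was in 8.86% of promoters and in those 4 genes, and the Y core in 37.4% of promoters and in all 7 genes. A gene was counted if any of its promoters held the core, while the shares are per promoter. For H2-DMa a promoter held a Y core only, at −198 from the start site, and another held neither core. The palindrome was in 1.79% of promoters and, of the 7, in H2-Aa only, 18 bases before its Y core. H2-DMb1 and H2-DMb2 are neighbouring copies and both hold the pair of cores, and their levels were 65.1 and 3.03 FPKM. A match or its absence in these letters describes the window and not the binding of a factor.

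With PB-020 alone no class II gene passed the test against the vehicle tumors. H2-Ab1, the beta chain of the I-A molecule, was at 166, 127 and 185 FPKM in the CK tumors and at 179, 110 and 151 FPKM in the PB-020 tumors. Cd74 was at 429, 349 and 518 FPKM in CK and at 454, 280 and 382 FPKM with PB-020. In both genes the groups overlapped, and tumor 2 of each group was the lowest, with PB-020 tumor 2 below every CK tumor.

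Log2 changes between PB-020 and CK ran from −0.19 for Cd74 to 0.31 for H2-Oa, with 3 genes higher and 7 lower and a median of −0.05 (all genes: −0.00378). None of the 10 passed an adjusted p of 0.05 in edgeR, nor in DESeq2, nor an unadjusted p of 0.05 in either tool, against 0% of all genes by the adjusted rule, 5.46% (741 genes) by the unadjusted one and 6 genes in DESeq2. The intervals were wide: for H2-Ab1, the 95% interval of the change reached from 0.588-fold to 1.48-fold of CK, and for H2-DMb1, the narrowest, from 0.801-fold to 1.16-fold. No gene of the set had all 3 PB-020 tumors above all 3 CK tumors, where 6.19% of all genes did.

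With anti-PD-1 alone every member had a higher mean than in CK, but 2 of the 10 passed the test. H2-Ab1 was at 415, 199 and 214 FPKM in the anti-PD-1 tumors against at most 185 FPKM in CK. Its invariant chain Cd74 was at 1077, 486 and 531 FPKM, and its alpha chain H2-Aa at 646, 382 and 400 FPKM against 347, 252 and 377 FPKM in CK. For H2-Aa and H2-Ab1 the groups did not overlap, though tumors 2 and 3 stood close above the highest CK tumor, and for Cd74 tumor 2 lay below the highest CK tumor.

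**Figure D1:**
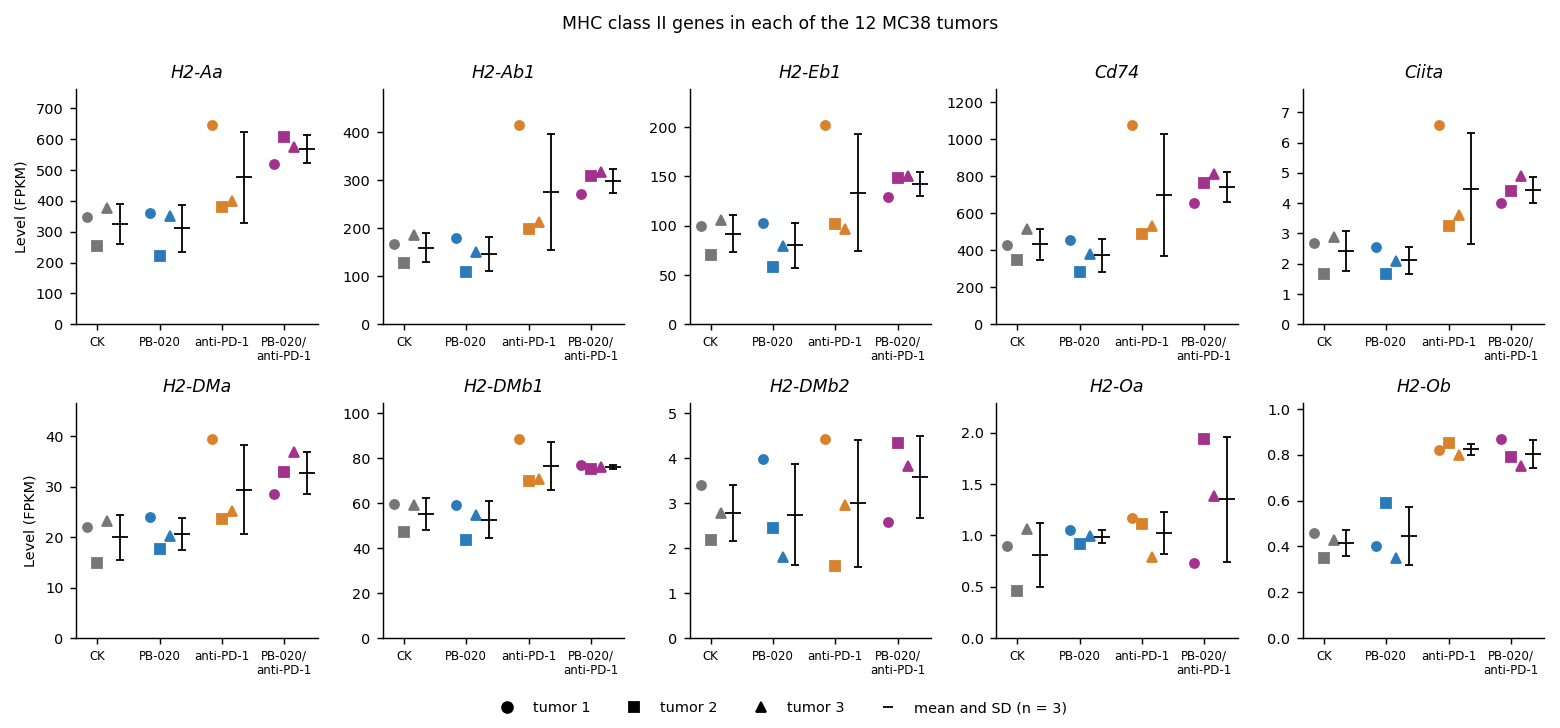
Level in FPKM (linear axes from 0, a scale for each gene) of the 10 MHC class II genes in each of the 12 tumors, by treatment group, with the mean and SD of 3 tumors as a bar at the right of each group. The anti-PD-1 tumor 1 is the highest point for 8 of the 10 genes, and the 3 PB-020/anti-PD-1 tumors lie above the 3 CK tumors for 8 of them.

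The 2 genes that passed with anti-PD-1 alone were a chain of the editor H2-DM and a chain of H2-DO, which restrains it. H2-DMb1, the beta chain of H2-DM, was at 59.6, 47.2 and 59.1 FPKM in CK and at 88.7, 69.7 and 70.7 FPKM with anti-PD-1, a log2 rise of 0.49 ± 0.12 (SE, 3 against 3 tumors, adjusted p = 0.033, edgeR). H2-Ob, the beta chain of H2-DO, was at 0.46, 0.35 and 0.43 FPKM in CK and at 0.82, 0.85 and 0.80 FPKM with anti-PD-1, a log2 rise of 1.01 ± 0.27 (SE, adjusted p = 0.037, edgeR). H2-Ob rests on few reads, 15 to 37 expected counts per tumor over all 12. Among all genes tested, 4.18% were raised by this rule. By the looser rule of a change over 1.5-fold with an unadjusted p under 0.05, 4 of the 10 and 4.5% of all genes were raised.

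Other class II genes had larger differences than H2-DMb1 and did not pass. Ciita, the coactivator, was at 2.69, 1.65 and 2.89 FPKM in CK and at 6.58, 3.23 and 3.62 FPKM with anti-PD-1, a log2 difference of 0.90 ± 0.29 (SE, adjusted p = 0.086, edgeR). The difference for H2-Ab1 was 0.81 ± 0.29 on the log2 scale (SE, adjusted p = 0.12, edgeR), and the coefficient of variation of its FPKM over the 3 anti-PD-1 tumors was 43.8% against 18.6% in CK. In all, 6 of the 10 genes had every anti-PD-1 tumor above every CK tumor, where 11.8% of all genes did, and the median log2 difference of the set was 0.56 (all genes: 0.000468).

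Both calls were lost without anti-PD-1 tumor 1, where 0 of 10 passed in edgeR (3 at an unadjusted p under 0.05) and the median log2 difference of the set fell to 0.28. H2-DMb1 was then at 0.37 ± 0.12 (SE, adjusted p = 0.086, edgeR) and H2-Ob at 1.02 ± 0.30 (SE, adjusted p = 0.065, edgeR), while Cd74 dropped from 0.72 to 0.27. The count was also 0 without CK tumor 2, without CK tumor 3 or without anti-PD-1 tumor 3, and 1 without CK tumor 1, PB-020 tumor 1 or any 1 of the combination tumors. With the 6 tumors of the groups compared fitted alone it was 0, with 3 genes called of all.

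In the combination all 10 genes had a higher mean than in CK, and 3 passed the test. H2-Aa, which forms the I-A alpha chain, was at 518, 608 and 575 FPKM, all above the highest CK tumor at 377 FPKM, and rose by 0.82 ± 0.25 on the log2 scale (SE, adjusted p = 0.048, edgeR). H2-DMb1 was at 76.9, 75.4 and 76.4 FPKM and rose by 0.48 ± 0.12 (SE, adjusted p = 0.020, edgeR). H2-Ob was at 0.87, 0.79 and 0.75 FPKM and rose by 0.98 ± 0.27 (SE, adjusted p = 0.026, edgeR).

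These 3 were the genes of the set that passed against CK, where 8.35% of all genes were raised, and 5 of the 10 and 4.95% of all genes were raised by the looser rule. H2-Ab1, at 270, 308 and 316 FPKM, had the larger log2 difference of 0.92 ± 0.29 with an adjusted p of 0.060 (edgeR). Ciita, at 4.02, 4.39 and 4.90 FPKM, differed by 0.89 ± 0.29 with an adjusted p of 0.061 (edgeR), and Cd74, at 654, 764 and 813 FPKM, by 0.80 ± 0.31 with an adjusted p of 0.10 (edgeR). In 8 of the 10 genes all 3 combination tumors lay above all 3 CK tumors (17.9% of all genes), the exceptions being H2-DMb2 and H2-Oa, and the median log2 difference was 0.78 (all genes: −0.0026).

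The count against CK moved with single tumors in both directions. Without anti-PD-1 tumor 1, which is in neither group but enters the shared estimate of the spread, 7 of 10 passed, with H2-Ab1 at 0.92 ± 0.19 (SE, adjusted p = 0.010, edgeR), Cd74 at an adjusted p of 0.017, Ciita at 0.014 and H2-DMa at 0.038. Without CK tumor 2, or without combination tumor 1 or 2, the count was 0, without CK tumor 3 it was 1, and without anti-PD-1 tumor 2 it was 5. It was 2 without any 1 of CK tumor 1, PB-020 tumors 1 and 3, anti-PD-1 tumor 3 and combination tumor 3. DESeq2 called 6, and the fit of the 6 tumors of the groups compared called 7.

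**Figure D2:**
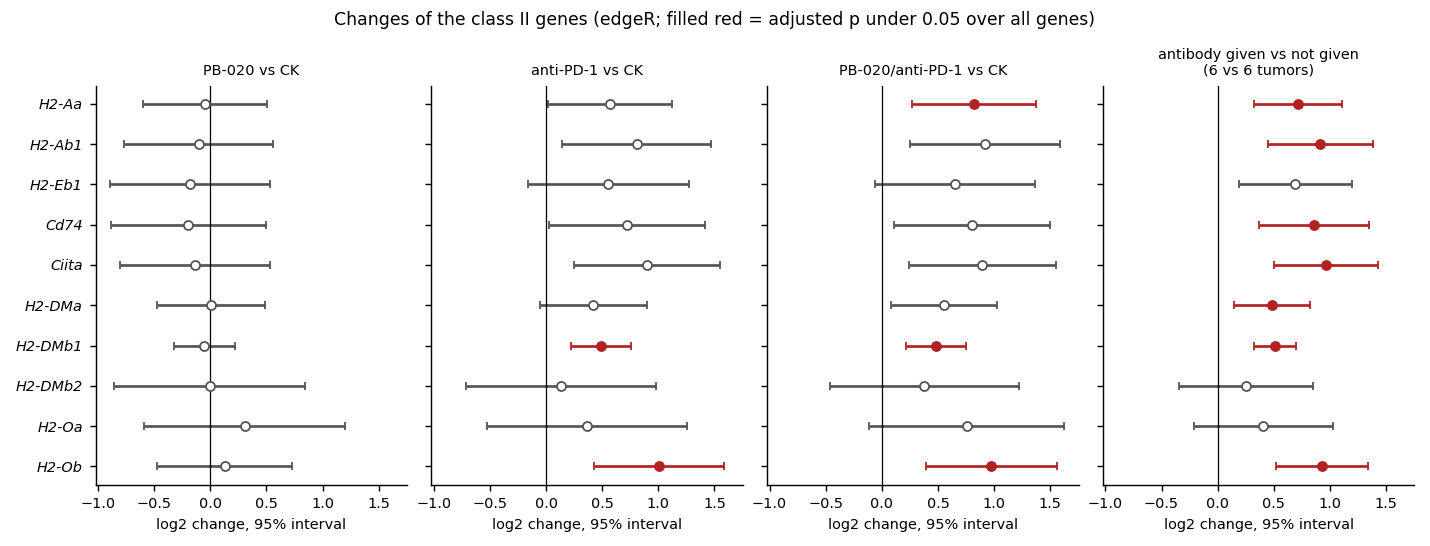
Log2 change of each class II gene with its 95% interval, for each treated group against CK (3 against 3 tumors) and for the 6 antibody-treated against the 6 other tumors. Filled red points passed an adjusted p of 0.05 over all genes (0, 2, 3 and 7 genes from left to right), and open points did not.

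Spread within groups differed as well, and it did not follow the level. In the combination the coefficient of variation of FPKM was 8.0% for H2-Aa, 8.25% for H2-Ab1, 8.36% for H2-Eb1, 11% for Cd74 and 1.04% for H2-DMb1. In CK the same genes varied by 20%, 18.6%, 20.7%, 19.6% and 12.7%, and with anti-PD-1 alone by 31%, 43.8%, 44.6%, 47.2% and 14.0%. With PB-020 they varied by 24.8%, 23.8%, 28.3%, 23.5% and 15.5%. The anti-PD-1 values include tumor 1, the highest of its group in all members but H2-Ob. Among the low genes, H2-Oa and H2-DMb2 went the other way, at 44.9% and 25.3% in the combination against 38.5% and 22.2% in CK. These are SDs over 3 tumors, and their difference was not tested.

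The comparisons of the combination with each single treatment ask whether either drug adds to the other. Against PB-020 alone, H2-DMb1 was the gene of the set that passed, with 59.4, 43.6 and 55.0 FPKM in the PB-020 tumors and a log2 rise of 0.53 ± 0.12 (SE, adjusted p = 0.040, edgeR), where 1.25% of all genes were raised. By the looser rule 6 of the 10 and 3.89% of all genes were raised. Larger log2 differences that did not pass were 1.03 ± 0.29 for Ciita (SE, adjusted p = 0.080, edgeR), 1.02 ± 0.29 for H2-Ab1 (SE, adjusted p = 0.088, edgeR) and 1.0 ± 0.31 for Cd74 (SE, adjusted p = 0.10, edgeR). All 3 combination tumors lay above all 3 PB-020 tumors in 8 genes (14.5% of all genes). The call of H2-DMb1 was lost without any 1 of the 3 PB-020 or the 3 combination tumors, 5 genes passed without anti-PD-1 tumor 1, 5 passed in DESeq2 and 6 passed with these 6 tumors fitted alone.

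Against anti-PD-1 alone, the combination showed no called difference in the class II genes. Log2 differences ran from −0.03 for H2-Ob to 0.39 for H2-Oa with a median of 0.10 (all genes: −0.0225), no groups were separated in either direction (5.12% of all genes lay above and 4.90% below), and 0% of all genes passed the adjusted rule. None of the 10 passed an unadjusted p of 0.05 in edgeR, where 7.26% of all genes (984) did, and 0 of 10 passed in DESeq2, where 1 of all genes did. The 95% interval for H2-Ab1 allowed 0.685-fold to 1.70-fold, and that for H2-DMb1 0.828-fold to 1.20-fold. Without anti-PD-1 tumor 1 the median log2 difference was 0.50, with H2-Ab1 at 0.52 ± 0.21 (SE, adjusted p = 0.61, edgeR), Cd74 at 0.54 ± 0.22 (SE, adjusted p = 0.60, edgeR) and 0 of 10 called, and 3 of the 10 had an unadjusted p under 0.05.

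The interaction, the change under the combination beyond the sum of the log2 changes under each drug, was not called for any of the 10 genes. It ran from −0.16 for H2-Ob to 0.29 for H2-Aa, each with an interval across 0, and 0 of these and 2.29% of all genes (310) had an unadjusted p under 0.05 in edgeR. By the adjusted rule 0% of all genes passed, and DESeq2 called 0. For H2-Ab1 the interaction was 0.21 with a 95% interval of −0.72 to 1.15. Without anti-PD-1 tumor 1 its median over the set was 0.53 against 0.17 with it, 0 passed, and Cd74, at 0.73 ± 0.29 (SE, adjusted p = 0.97, edgeR), was the gene with an unadjusted p under 0.05.

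Set side by side as 6 tumors with the antibody and 6 without, averaging over PB-020, 7 of the 10 class II genes rose, where 11.8% of all genes did. These comparisons reuse the same tumors, so the counts do not add up as separate evidence. Ciita rose by 0.96 ± 0.21 on the log2 scale (SE, adjusted p = 0.010, edgeR), H2-Ob by 0.93 ± 0.19 (SE, adjusted p = 0.0047, edgeR) and H2-Ab1 by 0.92 ± 0.21 (SE, adjusted p = 0.014, edgeR). Cd74 rose by 0.86 ± 0.22 (SE, adjusted p = 0.022, edgeR), H2-Aa by 0.72 ± 0.17 (SE, adjusted p = 0.017, edgeR), H2-DMb1 by 0.51 ± 0.09 (SE, adjusted p = 0.0022, edgeR) and H2-DMa by 0.48 ± 0.15 (SE, adjusted p = 0.042, edgeR).

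The remaining 3 did not pass. H2-Eb1, the I-E beta chain, was at 99.4, 70.4 and 106 FPKM in CK, at 103, 57.7 and 79.4 FPKM with PB-020, at 202, 102 and 96.2 FPKM with anti-PD-1 and at 129, 148 and 150 FPKM in the combination, and differed by 0.69 ± 0.22 (SE, adjusted p = 0.052, edgeR). Tumors 2 and 3 of the anti-PD-1 group lay below the highest CK tumor. H2-Oa, the H2-DO alpha chain, was at 0.90, 0.46 and 1.06 FPKM in CK, 1.05, 0.92 and 0.99 FPKM with PB-020, 1.17, 1.11 and 0.79 FPKM with anti-PD-1 and 0.73, 1.94 and 1.38 FPKM in the combination, and differed by 0.41 ± 0.29 (SE, adjusted p = 0.32, edgeR). H2-DMb2 was at 1.60 to 4.43 FPKM with anti-PD-1 and at 2.17 to 3.41 FPKM in CK, and differed by 0.26 ± 0.28 (SE, adjusted p = 0.53, edgeR).

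H2-DMa, the alpha chain of the editor, passed by a smaller margin. It was at 22.0, 14.9 and 23.2 FPKM in CK, at 23.9, 17.6 and 20.3 FPKM with PB-020, at 39.5, 23.6 and 25.2 FPKM with anti-PD-1 and at 28.6, 32.9 and 36.9 FPKM in the combination, and anti-PD-1 tumor 2 lay below the highest PB-020 tumor. All 6 antibody-treated tumors lay above all 6 others in H2-Aa, H2-Ab1, Ciita, H2-DMb1 and H2-Ob, 5 of 10 genes, where 3.54% of all genes did. The looser rule took 6 of the 10 and 5.18% of all genes. Without anti-PD-1 tumor 1, 6 genes passed by the adjusted rule, with H2-DMa lost at an adjusted p of 0.066 (edgeR).

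The I-A and I-E chains, Cd74, Ciita and H2-DMa went up and down together from tumor to tumor, and the low genes followed them less closely. Over the 12 tumors, the 15 pairs among H2-Aa, H2-Ab1, H2-Eb1, Cd74, Ciita and H2-DMa had Pearson correlations of log2 CPM between 0.957 and 0.994, and after subtraction of each group's mean between 0.929 and 0.995. H2-DMb1 followed them slightly less closely (0.906 to 0.974 with each of the 6, and 0.863 to 0.951 within groups). These are descriptions over 12 tumors that share their groups, so no test was attached.

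With the same 6 genes H2-DMb2 had correlations of 0.582 to 0.672 over the 12 tumors and 0.612 to 0.73 within groups, and H2-Oa of 0.551 to 0.713 and 0.492 to 0.665. H2-DMb2, H2-Oa and H2-Ob had correlations of 0.24 to 0.505 among themselves. H2-Ob, which rose with the antibody, had correlations with the 6 of 0.589 to 0.743 over the 12 tumors but of −0.36 to −0.114 within groups. It was not highest in anti-PD-1 tumor 1, at 0.82 FPKM there against 0.85 and 0.80 FPKM in the others of that group. Counting noise is large for these 3, which had 7 to 29 expected counts per tumor for H2-Oa, 15 to 37 for H2-Ob and 17.3 to 48.4 for H2-DMb2.

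**Figure D3:**
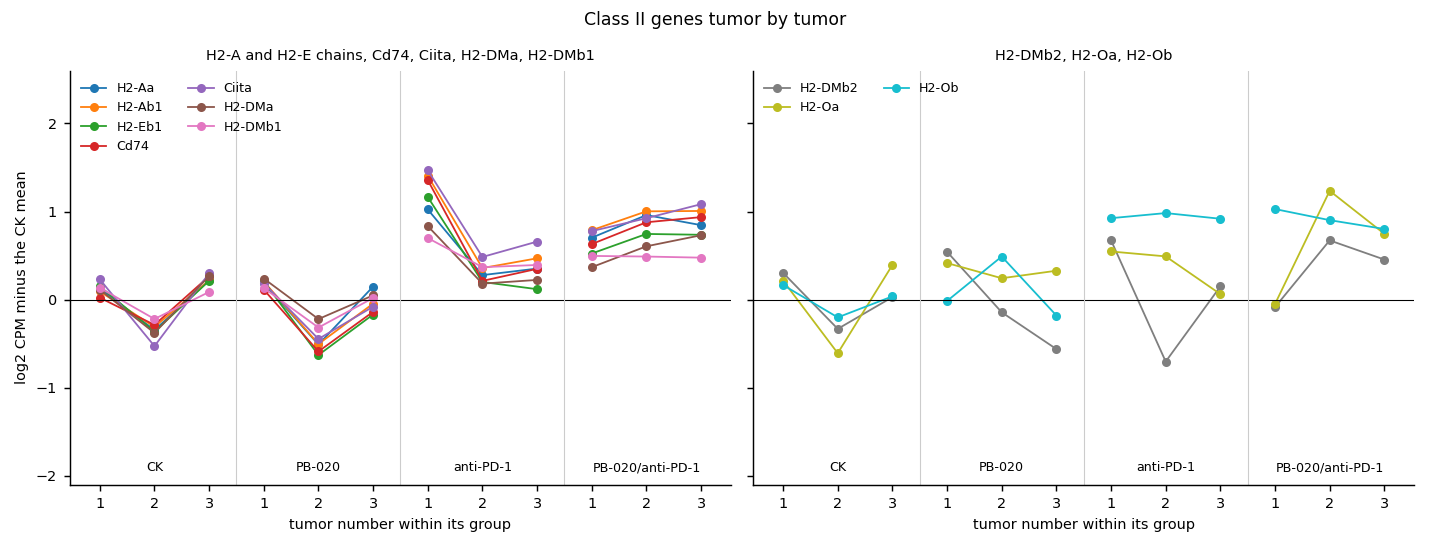
Log2 CPM of each class II gene minus its CK mean, tumor by tumor, with lines joining the tumors of a group for each gene (tumors have no order). Tumor 2 is lowest in CK for all 10 genes and lowest in PB-020 for 8, and tumor 1 is highest in anti-PD-1 for 9, the exceptions being H2-DMb2 and H2-Ob in PB-020 and H2-Ob in anti-PD-1.

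H2-DMb1 and H2-DMb2 are near-identical copies, and RSEM shares out reads that fit both. Their longest transcripts matched in 95.2% of 1209 aligned bases, and 13.7% of the 100-base windows of H2-DMb1 also occur in H2-DMb2, so the values of H2-DMb2 are uncertain. H2-DMb2 held 1.27% to 3.62% of their joint counts. With both summed as 1 gene, the log2 change was 0.48 for anti-PD-1 against CK (adjusted p = 0.037, edgeR), 0.48 for the combination against CK (adjusted p = 0.023, edgeR), and 0.53 for the combination against PB-020 (adjusted p = 0.045, edgeR). Nearly all counts of the sum are those of H2-DMb1, so it had to give nearly the same result and is no separate check of these calls.

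The proportions of Cd74 and Ciita to H2-Ab1 were narrow compared with the level of H2-Ab1, which ran from 110 to 415 FPKM over the 12 tumors. Other proportions between members, such as that of H2-DO to H2-DM, ranged more widely. Cd74 was at 2.42 to 2.79 times the level of H2-Ab1 in every tumor, and Ciita at 1.30% to 1.70% of it. The ratio of H2-Eb1 to H2-Ab1 went the other way from the levels: it lay between 0.526 and 0.598 in the 6 tumors without the antibody and between 0.450 and 0.515 in the 6 with it, without overlap. The share of all genes whose ratio to H2-Ab1 was separated in this way was not counted, so this cannot be called particular to H2-Eb1. The ratio of H2-Aa to H2-Ab1 was 1.98 to 2.33 without the antibody and 1.56 to 1.97 with it, also without overlap though by a small margin. Both ratios share the denominator H2-Ab1. H2-DO over H2-DM, the inhibitor per editor, was 1.26% to 2.43% and the groups overlapped.

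Dendritic cells and macrophages are the cells in which class II genes are usually read in a tumor, and the levels of their markers stand beside these results. For the marker lists here and in the next paragraph, the shares over all genes were 4.18% raised and 4.08% lowered with anti-PD-1 alone. They were 8.35% and 9.6% in the combination, and 11.8% and 12.3% over all antibody-treated tumors. Of 11 macrophage markers tested, 0 rose with either antibody arm against CK and 1 (Fcgr1) over all 6 antibody-treated tumors, and their summed level was 1688 to 2090 FPKM in CK, 1770 to 2116 FPKM with PB-020, 1648 to 3188 FPKM with anti-PD-1 and 2170 to 2549 FPKM in the combination. Of 10 dendritic cell markers, 1 rose with anti-PD-1 (Irf8), 2 in the combination (Irf8 and Xcr1) and 5 over all antibody-treated tumors, and their summed level was 23.0 to 27.0, 20.8 to 26.3, 29.4 to 48.3 and 34.9 to 36.5 FPKM in the same order. Irf8 is also in the interferon gamma list below. B cell markers were too low to test for 7 of 10, and 0 of the other 3 passed.

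Other cell types moved with the antibody as well. Of 9 T cell markers, 7 rose with anti-PD-1 and 8 in the combination, with summed levels of 13.4 to 18.5 FPKM in CK, 19.8 to 24.9 FPKM with PB-020, 29.8 to 74.6 FPKM with anti-PD-1 and 35.8 to 58.6 FPKM in the combination. By tumor the anti-PD-1 sums were 74.6, 31.1 and 29.8 FPKM, and the counts of the marker lists were not repeated without tumor 1. All 5 erythroid markers tested fell in both antibody arms, with summed levels of 679 to 1556 FPKM in CK and 101 to 380 FPKM with anti-PD-1. Of 5 markers of lymph node stroma 2 could be tested and 0 passed in either antibody arm, while over all antibody-treated tumors the chemokine Ccl21a rose by 2.98 ± 0.86 on the log2 scale (SE, adjusted p = 0.035, edgeR). Their sums were at most 2.01 FPKM in CK and 12.8 FPKM in the combination. The part of these cell types in the class II levels was not tested.

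The level of H2-Ab1 was also divided by that of each macrophage and dendritic cell marker in the same tumor. For 9 of the 11 macrophage markers the ratio in all 6 antibody-treated tumors lay above that in all 6 others. For Fcgr1 and Lyz2 the ranges overlapped, as they did for all 10 dendritic cell markers. H2-Ab1 itself was already separated in this way, so its ratio to a marker that changed little was bound to lean the same way. Several dendritic cell markers were near the floor, with Flt3 at most 0.49 FPKM and Xcr1 at most 0.63 FPKM. Noise in low denominators widens such ratios, so the counts of these lists cannot be compared. Shares over all genes were counted for Csf1r, C1qa, Adgre1 and Itgax only. The ratio of H2-Ab1 to Csf1r, the receptor for the macrophage growth factor, was 3.33 to 5.19 in the 6 tumors without the antibody and 6.41 to 8.95 in the 6 with it, a separation that 1.74% of all genes shared, and among the 10 class II genes H2-Ab1, H2-Eb1, Cd74 and Ciita. Against the complement gene C1qa the ratio was 0.617 to 0.861 without and 0.946 to 1.26 with the antibody (1.02% of all genes and 3 of the 10). Against Adgre1, the F4/80 antigen, it was 6.18 to 10.3 without and 11.3 to 16.1 with the antibody (1.64% of all genes and 4 of the 10). Against the dendritic cell integrin Itgax it was 23.5 to 37.3 without and 29.2 to 47.4 with the antibody. All 6 antibody-treated tumors lay above all 6 others for 0 of the 10 genes and 0.059% of all genes. They lay below for 2218 of the 13563 genes tested. The part of macrophage and dendritic cell content in these ratios was not tested.

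**Figure D4:**
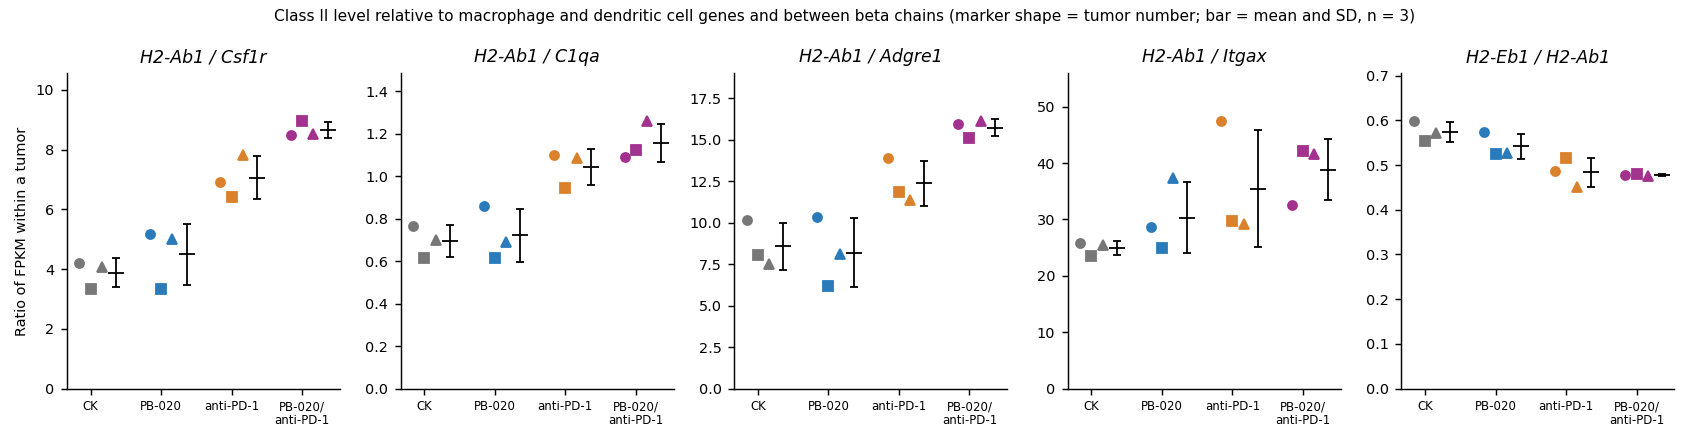
Ratio of FPKM within each tumor (linear axes from 0) of H2-Ab1 to Csf1r, C1qa, Adgre1 and Itgax and of H2-Eb1 to H2-Ab1, by group, with mean and SD of 3 tumors. The 6 antibody-treated tumors lie above the 6 others for the first 3 ratios and below them for the last, and the groups overlap for Itgax.

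Part of the interferon gamma pathway known to feed into Ciita rose with the antibody. For the lists that follow, the shares over all genes were 4.18% raised and 4.08% lowered with anti-PD-1 alone, 8.35% and 9.6% in the combination, and 11.8% and 12.3% over all antibody-treated tumors. The counts of these lists were not repeated without anti-PD-1 tumor 1. Of 10 genes for interferon gamma, its receptor and its signal, 5 rose with anti-PD-1 alone, 6 rose and 1 fell in the combination, and 7 rose over all 6 antibody-treated tumors, against 0 with PB-020. Ifng itself was at 0.72 to 0.82 FPKM in CK, 0.84 to 1.84 FPKM with PB-020, 1.5 to 5.36 FPKM with anti-PD-1 and 2.03 to 3.91 FPKM in the combination, where it rose by 2.08 ± 0.45 on the log2 scale (SE, adjusted p = 0.0094, edgeR). Irf1, which acts at a Ciita promoter, rose by 0.69 ± 0.18 in the combination (SE, adjusted p = 0.027, edgeR). The gene that fell was the kinase Jak1, by 0.19 on the log2 scale, and the receptor chain Ifngr1 was at −0.04.

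The promoter machinery gave counts near the shares over all genes. Of 11 genes for RFX, NF-Y, CREB1, their cofactors and the Ciita repressor Prdm1, 1 rose with anti-PD-1 (the acetyltransferase Kat2b), 1 fell in the combination (the acetyltransferase Crebbp), and 2 rose and 1 fell over all antibody-treated tumors. Rfx5 was at 0.07 on the log2 scale with anti-PD-1 and at −0.18 in the combination, and neither passed. The gene that fell over all antibody-treated tumors was Rfxank, by 0.21 on the log2 scale (adjusted p = 0.031, edgeR), and those that rose were Kat2b and Prdm1.

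Among 13 genes for endosomal processing, 0 rose with anti-PD-1 or in the combination, and 2 fell in the combination. These were the protease Lgmn, by 0.42 on the log2 scale (adjusted p = 0.013, edgeR), and the ubiquitin ligase March8, by 0.32 (adjusted p = 0.015, edgeR). Over all antibody-treated tumors both were lower, and Ctss, the protease that trims Cd74, rose by 0.72 ± 0.23 (SE, adjusted p = 0.049, edgeR), with Ctsc and the class II ligase March1. Ctss was at 194 to 245 FPKM in CK and at 222 to 558 FPKM with anti-PD-1.

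Of 11 genes for partners of class II and Cd74 and for costimulation, 2 rose with anti-PD-1 (Lag3 and Cd28) and 6 in the combination (Lag3, Cd28 and Icos of the T cell, and Cd80, Cd86 and Cd40 of the presenting cell). Lag3, an inhibitory receptor that binds class II, was at 1.34 to 1.62 FPKM in CK and at 3.35 to 4.04 FPKM in the combination, a log2 rise of 1.24 ± 0.31 (SE, adjusted p = 0.017, edgeR). Cd86, a costimulator on the presenting cell, rose by 0.71 ± 0.19 (SE, adjusted p = 0.021, edgeR). Cd4, the coreceptor for class II, differed by 0.69 ± 0.41 and did not pass (adjusted p = 0.26, edgeR), with 0.96 to 1.59 FPKM in CK and 1.74 to 2.12 FPKM in the combination.

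Class I presentation, the sister pathway that shows peptides to CD8+ T cells, gave more calls for differences of a like size. Of its 17 genes, 10 rose with anti-PD-1, 10 in the combination and 14 over all antibody-treated tumors, with a median log2 difference in the combination of 0.63 against 0.78 for the class II genes. Its coactivator Nlrc5, a relative of Ciita, rose in the combination by 0.64 ± 0.18 (SE, adjusted p = 0.032, edgeR), with a smaller SE than the 0.89 ± 0.29 of Ciita. The difference between the sets was not tested.

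The 10 genes most like the class II set in pattern, by Pearson correlation with the mean log2 CPM of H2-Aa, H2-Ab1, H2-Eb1 and Cd74 over the 12 tumors, were Il2rb (0.988), Ctsw (0.967), Plbd1 (0.965), Zap70 (0.964), Slamf8 (0.962), Fgl2 (0.959), BC037034 (0.957), Tigit (0.952), Ikzf4 (0.951) and Clec7a (0.947). Within groups the same correlations were 0.88 for Clec7a to 0.986 for Il2rb. Il2rb is a receptor chain for interleukins of T and natural killer cells, Zap70 a kinase of the T cell receptor, and Clec7a a receptor of myeloid cells for fungal glucans. All share the high value of anti-PD-1 tumor 1 with the class II genes through the correlation that named them.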

How the data were processed

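RNA was measured in 12 tumors, grouped by the labels' treatment. Per the study's methods, paired reads of 150 bases were aligned with Bowtie2 and quantified with RSEM by the authors, and the submitters' processing notes also name HISAT and GRCm38.p6. The annotation is not given in the sources used here. The authors deposited expected counts, which are estimated and not normalized (91.0% whole). The deposited FPKM values are scaled by the authors for length and depth, and in the TPM values the authors deposited, each tumor has 1 common sum. Of 18211 gene numbers, 18091 (99.3%) matched RefSeq of GRCm38.p6.

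Expected counts were rounded, filtered with filterByExpr (minimum count 10) and fitted by edgeR 4.0.16 (quasi-likelihood, robust, TMM, 4 group means, all 12 tumors) in R 4.3.3. Tests were two-sided, with Benjamini-Hochberg adjustment over 13563 genes and a threshold of 0.05. Log2 CPM used a prior count of 2. DESeq2 1.42.0, and limma 3.58.1 on log2(FPKM + 1) and log2(FPKM + 0.1), were alternatives, as were other scalings and filters, a fit of the compared groups alone, a replicate block, leaving out each tumor, and a rule of 1.5-fold with an unadjusted p under 0.05. The scripts were tested on simulated data.

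Members and lists were chosen with earlier results of these data known. The genes named are the 10 members, up to 6 called members of a list with the smallest p, and the 10 genes most correlated with the classical chains and Cd74. Single values given for list genes that did not pass (Ifngr1, Rfx5, Cd4, Cdh1), the markers Csf1r, C1qa, Adgre1 and Itgax and H2-Eb2 were chosen after their values were seen. Depth limits the genes with few counts, and intervals take in tumor-to-tumor spread and counting error only. Some list genes that the naming rule would name are not reported here by name, but remain in the counts.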

Additional observations from a re-analysis of the deposited data

How the results depend on the processing

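For the combination against CK, the combination against PB-020 and the 6 against 6 comparison, no gene of the set changed sign under any alternative, and for anti-PD-1 against CK this happened to H2-DMb2 when 1 tumor was left out. How many genes passed depended on the setting. For anti-PD-1 against CK it was 2, but 3 in DESeq2, 1 with no filter on low genes, 0 with the groups compared fitted alone and 4 by the rule of 1.5-fold with an unadjusted p. For the combination against CK it was 3, but 6 in DESeq2, 5 in limma on log2 FPKM with either pseudocount, 7 with the groups compared fitted alone, 5 by the fold rule and 2 by library size alone or with no filter. For the combination against PB-020 it was 1, but 5 in DESeq2, 6 with the groups compared alone and 6 by the fold rule. The strict filter left 9 of the 10 genes. Leaving out each tumor in turn gave 0 to 2 for anti-PD-1 against CK, 0 to 7 for the combination against CK, 0 to 5 for the combination against PB-020 and 5 to 8 for the 6 against 6 comparison. Counts of 0 stayed 0 for PB-020 against CK, the combination against anti-PD-1 and the interaction. Over all genes, anti-PD-1 against CK gave 1120 calls, 3 with those groups fitted alone and 1672 in DESeq2, and the combination against PB-020 gave 455, 1535 and 1109. The cause was not tested.

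The labels number the tumors 1 to 3 in every group. Same-numbered tumors did not deviate together (18 pairs, correlations of −0.21 to 0.289, median −0.0367, 2 over 0.1), and pairs with different numbers ranged from −0.218 to 0.355, so the numbers were not taken as a pairing. With a replicate block, 5 genes passed for the combination against CK and 2 for the combination against PB-020. The block gave 2 for anti-PD-1 against CK, where Ciita passed (adjusted p = 0.044, edgeR) and H2-Ob did not (adjusted p = 0.063, edgeR), 8 for the 6 against 6 comparison and 0 elsewhere.

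Changes near 0 crossed it, and 0 of the 70 reversed values passed a test. For the combination against anti-PD-1, Ciita (−0.0037) was at 0.0029 in DESeq2, 0.036 and 0.054 in limma (pseudocounts 1 and 0.1), 0.0026 with median-of-ratios factors, 0.0012 with no filter, 0.0075 with the strict filter, 0.0060 with the groups alone and 0.056 with the block. H2-DMb1 (−0.0079) was at 0.0056 and 0.0057 in limma, 0.0013 with the strict filter, 0.0010 with the groups alone and 0.0017 with the block, and H2-DMb2, summed with H2-DMb1, was at −0.0018. H2-DMa under PB-020 was at −0.015 by library size alone, and the interaction of H2-Oa at −0.034 in limma (pseudocount 0.1). Leaving out 1 tumor at a time gave these ranges for the genes that crossed 0. For PB-020 against CK these were Ciita from −0.36 to 0.010, H2-Aa from −0.20 to 0.14, H2-Ab1 from −0.28 to 0.065, H2-DMa from −0.16 to 0.14, H2-DMb1 from −0.16 to 0.064, H2-DMb2 from −0.40 to 0.22, H2-Eb1 from −0.41 to 0.0067 and H2-Ob from −0.12 to 0.27. For anti-PD-1 against CK this was H2-DMb2 from −0.25 to 0.42. For the combination against anti-PD-1 these were Cd74 from −0.11 to 0.54, Ciita from −0.18 to 0.36, H2-Ab1 from −0.065 to 0.52, H2-DMb1 from −0.057 to 0.11, H2-DMb2 from −0.047 to 0.63, H2-Eb1 from −0.078 to 0.51 and H2-Ob from −0.095 to 0.025. For the interaction these were Ciita from −0.032 to 0.50, H2-DMa from −0.0012 to 0.36, H2-DMb1 from −0.064 to 0.16, H2-DMb2 from −0.037 to 0.65, H2-Oa from −0.27 to 0.38 and H2-Ob from −0.29 to 0.096. Depth limits H2-Oa, H2-Ob and H2-DMb2 most.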

Other observations

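Together the 10 class II genes took 0.159% to 0.229% of all transcripts by TPM in the CK tumors, 0.130% to 0.205% with PB-020, 0.227% to 0.475% with anti-PD-1 and 0.295% to 0.350% in the combination. The lowest anti-PD-1 tumor lay just under the highest CK tumor. The drug targets were read as well: Igf1r was at 10.1 to 11.9 FPKM in CK and 10.5 to 10.9 FPKM with PB-020, and Pdcd1, the gene of PD-1, at 0.79 to 1.28 FPKM in CK, 1.86 to 5.32 FPKM with anti-PD-1 and 2.55 to 3.28 FPKM in the combination.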
